A study of Homo sapiens with 4 samples.

Results

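The transcripts described here are 10 spliced noncoding RNAs that carry small nucleolar RNA (snoRNA) genes in their introns: GAS5, SNHG1, SNHG5, SNHG6, SNHG8, SNHG11, SNHG12, SNHG15, SNHG16 and SNHG17. They were chosen by gene symbol, and 10 of 10 were found among the 15942 genes of the count table and passed the filter on low counts, which 15557 genes passed. The cells were H9, an established human embryonic stem cell line, grown in E8 medium on plates coated with Matrigel. RNA was sequenced from 2 libraries of cells given a small interfering RNA against UPF1 (siUPF1 1 and siUPF1 2) and from 2 libraries of cells given an siRNA against luciferase, for which human cells have no target (siLuc). The table gives both siLuc count columns 1 name, so they are called siLuc a and siLuc b here. A treatment text common to the 4 libraries also names an siRNA against UPF3A and an actinomycin D time course without saying which library it concerns. The labels do not state whether the 2 libraries of each siRNA are separate cultures, and p-values therefore measure library-to-library spread that could be technical.

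A snoRNA host gene is transcribed and spliced, the snoRNA is trimmed out of the excised intron, and the joined exons are left as a separate RNA. Box C/D snoRNAs (SNORD genes) guide 2'-O-methylation and box H/ACA snoRNAs (SNORA genes) guide pseudouridylation, mostly of ribosomal RNA. The joined exons of many such hosts hold only short open reading frames, and ribosomes that stop on them ahead of a later exon junction bring in nonsense-mediated decay (NMD). UPF1 is the helicase at the centre of that pathway, and spliced GAS5 is a textbook substrate of it.

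The siRNA target fell and the stem cell identity of the cells was visible in the counts. UPF1 had 60.8 and 78.2 CPM (counts per 1000000, scaled by TMM) in siUPF1 1 and siUPF1 2, against 219 and 205 CPM in siLuc a and siLuc b, so that 32.8% of the siLuc level was left. Its log2 fold change was -1.60 (SE 0.07; the Benjamini-Hochberg adjusted p of edgeR's quasi-likelihood test was 1.06e-102). Of 10 stem cell markers, 10 were present at mean levels of 92.2 to 470 CPM, and their summed level was 2201 and 2048 CPM in the siUPF1 libraries, against 2505 and 2340 CPM in the siLuc libraries. By the edgeR test 6 of the 10 fell, against 9.14% of all genes tested, and 8 of the 10 lay at or over 0.5 reads per transcript base, where 15.8% of all genes fell. The 2 mesendoderm, 2 neural and 4 trophoblast markers in the table summed, list by list, to at most 23.6 CPM in any library, and the mesendoderm sum was 3.50 and 3.74 CPM in siUPF1 against 9.84 and 9.97 CPM in siLuc (FOXA2 and MIXL1, both called lower). The trophoblast sum was 22.2 and 23.6 CPM in siUPF1 libraries against 17.2 and 16.4 CPM in siLuc libraries (GATA3 and CGA called higher), and the part of either in the results below was not tested. The 3 fibroblast genes summed to 354 and 341 CPM in siUPF1 and 346 and 337 CPM in siLuc, most of it COL1A1 and COL1A2, which were not called. PDGFRA was called lower, at 14.9 and 14.3 CPM in siUPF1 against 21.5 and 22.9 CPM in siLuc (log2 fold change -0.61, edgeR adjusted p = 0.000149). Libraries held 10058515 and 11200973 counts in siUPF1 1 and siUPF1 2 and 8887239 and 9937231 counts in siLuc a and siLuc b. In bulk RNA, a change in the share of cells that hold a transcript and a change in its amount per cell cannot be told apart.

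The reading frames that make these RNAs candidates for NMD are shown for 4 members, 3 that rose and SNHG16, which fell. Each is the frame opened by the first AUG of the GENCODE release 29 transcript that was matched through the table's RefSeq accessions, and the start and stop codons are in capitals (written as DNA).
SNHG11: ATGagtcaaTGA
SNHG17: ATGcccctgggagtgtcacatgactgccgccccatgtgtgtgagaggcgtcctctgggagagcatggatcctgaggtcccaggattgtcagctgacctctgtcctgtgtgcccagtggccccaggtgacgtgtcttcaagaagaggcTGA
SNHG15: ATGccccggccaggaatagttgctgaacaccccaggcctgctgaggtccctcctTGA
SNHG16: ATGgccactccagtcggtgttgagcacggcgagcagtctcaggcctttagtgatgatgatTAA

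The frame of SNHG11 (chromosome 20) has 3 codons before its stop, and 4 of the 4 exon junctions of that transcript lie at least 50 nt after the stop. The frame of SNHG17 (chromosome 20) has 49 codons and 2 of 6 junctions lie that far after it. SNHG15 (chromosome 7) has 18 codons and 1 of 4 junctions. The SNHG16 transcript shown (chromosome 17) has 20 codons and 3 of 4 junctions. Across the 13 transcripts matched to the 10 members, the first frame ran from 3 to 52 codons, and 12 of the 13 had at least 1 junction at least 50 nt after the stop. The exception was 1 of the 3 SNHG8 transcripts, whose stop lies past its last junction. These are features of reference transcripts, whose lengths differ from those behind the table (the table's SNHG6 is 352 nt long and the matched transcript 638 nt, and for SNHG1 the lengths are 1114 and 1487 nt), and the use of these frames was not measured here.

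Many snoRNA hosts are transcripts that start with a cytosine and a run of pyrimidines (a 5' terminal oligopyrimidine tract), so the first 30 bases after the RefSeq start are shown for 3 hosts that rose and for the 2 with such a tract (GRCh38.p14), with pyrimidines leading from the start in capitals.
SNHG11 (chr20:38446654-38446683, + strand): gcagccgcgcccccagccgtatttccgcgg
SNHG17 (chr20:38435299-38435328, - strand): agtccttcgccgtccctcgccgtccttcgc
SNHG8 (chr4:118278762-118278791, + strand): Cacattcgggaagcgtcgggattaggtgaa
SNHG5 (chr6:85678704-85678733, - strand): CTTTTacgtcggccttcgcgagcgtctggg
SNHG12 (chr1:28581844-28581873, - strand): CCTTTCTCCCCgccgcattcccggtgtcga

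A C followed by at least 4 pyrimidines at the very start was found on the transcribed strand for SNHG5 and SNHG12, 2 of the 8 members with an entry in the table of starts, against 4.07% of 35116 starts of all genes. SNHG11, SNHG17 and SNHG8 did not hold it at the base where the annotation places their start. Neither did GAS5, SNHG1 and SNHG16, whose starts are not printed and which were not called higher. Neither host with the tract was called higher, and SNHG15, which rose, had no entry. Only annotated starts were read and starts used elsewhere were not examined, so whether the tract goes with the rise was not tested. SNHG11 and SNHG17 lie side by side on chromosome 20, pointing away from each other, with their starts 11326 bases apart and no other annotated start between them.

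After UPF1 siRNA, 4 of the 10 hosts rose (SNHG11, SNHG17, SNHG15 and SNHG8), 1 fell (SNHG16) and 5 did not pass an adjusted p of 0.05 (GAS5, SNHG1, SNHG5, SNHG6 and SNHG12). Among all genes tested, 16.8% rose and 9.14% fell by the same edgeR test, and among 1616 noncoding genes tested 18% rose and 3.59% fell. The median log2 fold change of the 10 hosts was 0.15, against -0.01 over all genes tested. Both siUPF1 libraries lay above both siLuc libraries for 7 hosts and below both for 1, which over all genes tested holds for 32.3% and 31.1%. Summed over the 10 hosts the level was 463 and 426 CPM in siUPF1 1 and siUPF1 2, against 381 and 365 CPM in siLuc a and siLuc b. The 4 hosts that rose are the 4 whose introns hold box H/ACA snoRNA genes alone, in the RefSeq annotation. The 4 with box C/D genes alone had log2 fold changes of -0.20 to 0.13, and GAS5 and SNHG12 hold both kinds. This match was noticed after the values were seen, was not tested, and did not carry over to the other noncoding hosts described further on.

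**Figure D1:**
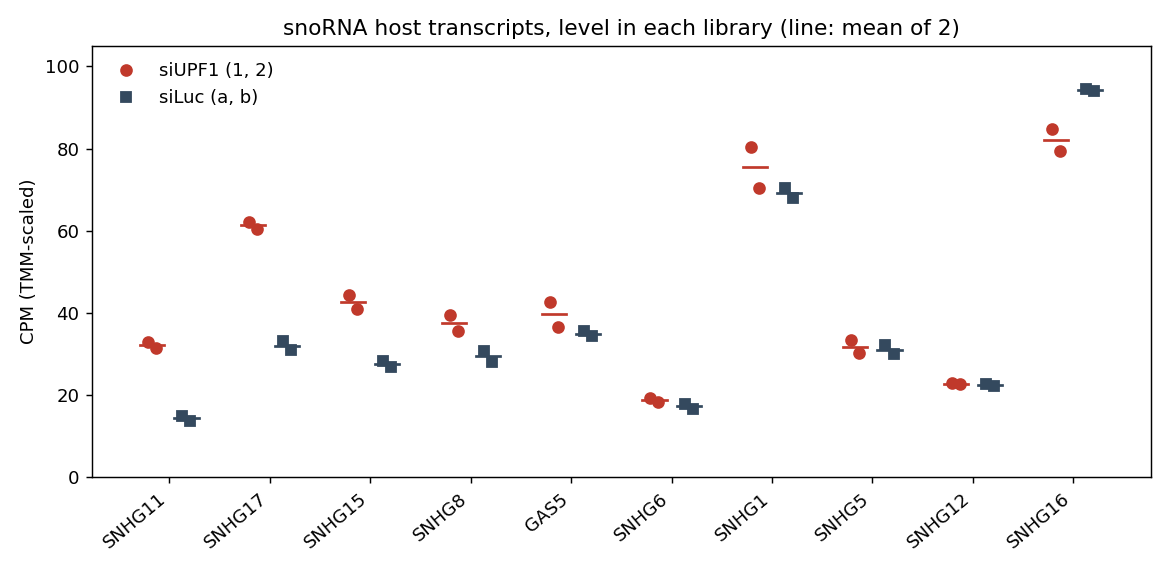
TMM-scaled CPM (vertical axis, linear from 0) of each host transcript in siUPF1 1 and 2 (red circles, left) and siLuc a and b (dark squares, right), with a line at the mean of 2 libraries; hosts run from the largest to the lowest fold change. SNHG11, SNHG17, SNHG15 and SNHG8 stand clear of their siLuc libraries, SNHG5 and SNHG12 overlap with them, and SNHG16 lies below them.

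SNHG11 had the largest rise of the 10. It carries SNORA60 and SNORA71E in its introns. SNHG11 had 330 and 354 counts in siUPF1 1 and siUPF1 2, against 132 and 138 counts in siLuc a and siLuc b, which are 33.0 and 31.5 CPM against 14.9 and 13.8 CPM. The siUPF1 libraries lay above the siLuc libraries by far more than the libraries of a group differed. SNHG11 averaged 32.3 ± 1.05 CPM in siUPF1 and 14.3 ± 0.825 CPM in siLuc (SD, n = 2 each), and its log2 fold change was 1.17 (SE 0.13, adjusted p = 1.54e-17, edgeR quasi-likelihood test), a 2.25-fold level.

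SNHG17, its neighbour on chromosome 20, rose nearly as much. It carries SNORA71A to SNORA71D, of the same snoRNA family as SNORA71E. SNHG17 had 622 and 680 counts in siUPF1 1 and siUPF1 2, against 293 and 310 counts in siLuc a and siLuc b. Its level was 62.2 and 60.6 CPM in siUPF1 libraries, against 33.1 and 30.9 CPM in siLuc libraries, without overlap. The log2 fold change was 0.94 (SE 0.09, adjusted p = 1.06e-22, edgeR quasi-likelihood test). The only other tested gene with an annotated start within 200 kb of either start was RALGAPB, which encodes a regulator of Ral GTPases. RALGAPB averaged 218 CPM in siUPF1 and 204 CPM in siLuc and did not pass (log2 fold change 0.09, SE 0.07, adjusted p = 0.37, edgeR quasi-likelihood test).

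SNHG15, the host of SNORA9, and SNHG8, the host of SNORA24, rose by less. SNHG15 had 44.5 and 41.0 CPM in siUPF1 1 and siUPF1 2, against 28.4 and 26.9 CPM in siLuc a and siLuc b. Its log2 fold change was 0.63 (SE 0.10, adjusted p = 3.40e-08, edgeR quasi-likelihood test). SNHG8 had 39.4 and 35.6 CPM in siUPF1 1 and siUPF1 2, against 30.9 and 28.1 CPM in siLuc a and siLuc b. The groups of SNHG8 did not overlap, and its log2 fold change was 0.35 (SE 0.11, adjusted p = 0.00636, edgeR quasi-likelihood test). The SNHG8 call was lost without siLuc b (log2 fold change 0.27, adjusted p = 0.215) and with DESeq2 (adjusted p = 0.143), within a range of 0.00106 to 0.215 over 12 alternatives, while SNHG11, SNHG17 and SNHG15 were called in 12 of 12.

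GAS5 and SNHG1, the hosts with the most snoRNA genes, lay above siLuc in both siUPF1 libraries but did not pass the test. GAS5 had 428 and 411 counts in siUPF1 1 and siUPF1 2, against 314 and 346 counts in siLuc a and siLuc b, and its level was 42.8 and 36.6 CPM against 35.5 and 34.5 CPM. The gap between siUPF1 1 and siUPF1 2 was larger than the gap between siUPF1 2 and siLuc a. The log2 fold change of GAS5 was 0.18 (95% interval -0.02 to 0.37, adjusted p = 0.18, edgeR quasi-likelihood test). It stood at 0.29 without siUPF1 2 and at 0.07 without siUPF1 1. UPF1 itself was lower in siUPF1 1, and siUPF1 2 was the deeper library, in which all 10 hosts were lower in CPM. The part of either in the level of GAS5 was not tested. The adjusted p ran from 0.0185 to 0.679 over 12 alternatives.

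SNHG1, which hosts SNORD22 and SNORD25 to SNORD31, had 80.5 and 70.4 CPM in siUPF1 1 and siUPF1 2, against 70.4 and 67.9 CPM in siLuc a and siLuc b. Its siUPF1 2 library was level with siLuc a. The log2 fold change of SNHG1 was 0.12 (95% interval -0.03 to 0.28, adjusted p = 0.25, edgeR quasi-likelihood test). Without siUPF1 2 it was 0.22 with an adjusted p of 0.0316, and without siUPF1 1 it was 0.03; adjusted p ran from 0.012 to 0.84 over 12 alternatives of the test.

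SNHG6, the host of SNORD87, had 19.4 and 18.4 CPM in siUPF1 1 and siUPF1 2, against 17.9 and 16.8 CPM in siLuc a and siLuc b, a log2 fold change of 0.13 (95% interval -0.15 to 0.40, adjusted p = 0.538, edgeR quasi-likelihood test). SNHG5, the host of SNORD50A and SNORD50B, had 33.4 and 30.3 CPM in siUPF1 libraries, against 32.2 and 30.02 CPM in siLuc libraries. The 2 groups of SNHG5 overlapped, and its log2 fold change of 0.03 (95% interval -0.18 to 0.25, adjusted p = 0.857, edgeR quasi-likelihood test) turned to -0.02 with scaling by genes under 0.25 reads per base. SNHG12, which hosts SNORD99 beside 3 box H/ACA genes, had 23.0 and 22.7 CPM in siUPF1 libraries, against 22.7 and 22.1 CPM in siLuc libraries. Its log2 fold change was 0.03 (95% interval -0.22 to 0.28, adjusted p = 0.9, edgeR quasi-likelihood test), whose upper end is a 1.21-fold level, and it was -0.02 with that scaling.

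SNHG16, the host of SNORD1A to SNORD1C and the most abundant of the 10 by counts, was the one that fell. It had 847 and 891 counts in siUPF1 1 and siUPF1 2, against 835 and 944 counts in siLuc a and siLuc b, which at these depths are 84.7 and 79.4 CPM against 94.4 and 94.2 CPM. Both siUPF1 libraries lay below both siLuc libraries. Its log2 fold change was -0.20 (SE 0.07, adjusted p = 0.0303, edgeR quasi-likelihood test). The call was lost in 5 of 12 alternatives: without siUPF1 2 (-0.15, adjusted p = 0.15), without siLuc a (adjusted p = 0.231), without siLuc b (adjusted p = 0.181), with DESeq2 (adjusted p = 0.202) and with scaling by genes under 0.25 reads per base (-0.25, adjusted p = 0.0513). The lowest adjusted p of the 12 was 0.00862.

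**Figure D2:**
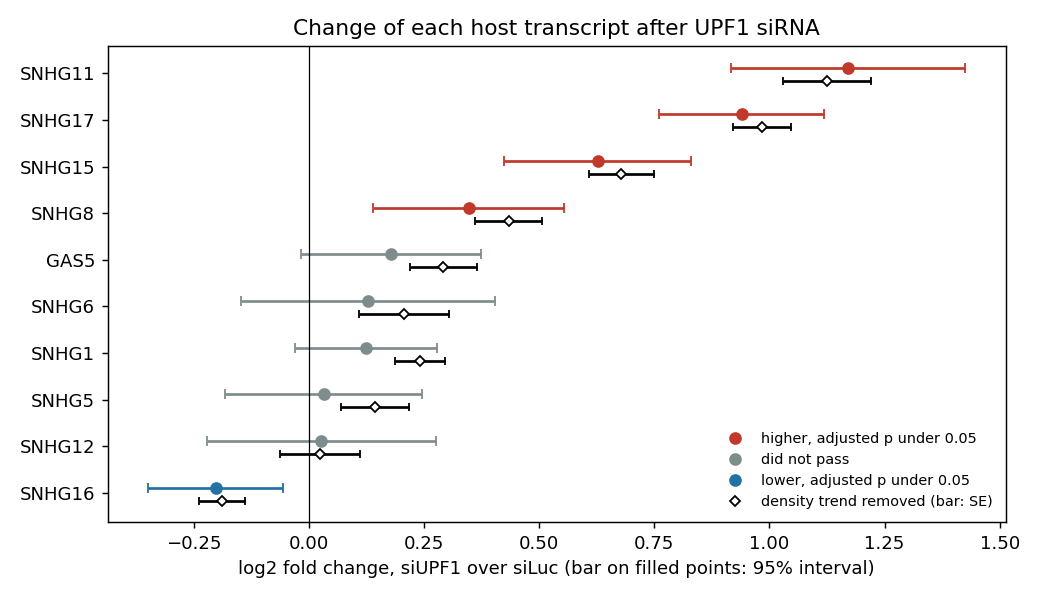
Log2 fold change of siUPF1 over siLuc (horizontal axis) for each host, with 95% intervals on filled points (red higher, blue lower, grey not past an adjusted p of 0.05); open diamonds give the value after the density dependence was taken out, with SE. Values run from 1.17 for SNHG11 to -0.20 for SNHG16, and the diamonds of GAS5 and SNHG1 lie at higher values than their filled points.

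Levels of different genes were compared per length, as CPM per kilobase of transcript. In siUPF1 libraries the order was SNHG1 (67.7), GAS5 (67.4), SNHG5 (63.0), SNHG8 (60.8), SNHG17 (54.8), SNHG6 (53.8), SNHG15 (53.4), SNHG16 (32.8), SNHG12 (31.4) and SNHG11 (29.8) in mean level. In siLuc libraries it was SNHG1 (62.0), SNHG5 (61.6), GAS5 (59.4), SNHG6 (49.2), SNHG8 (47.8), SNHG16 (37.7), SNHG15 (34.6), SNHG12 (30.8), SNHG17 (28.6) and SNHG11 (13.2) in mean level. Neighbours in the order whose libraries overlapped were SNHG1, GAS5, SNHG5 and SNHG8, and SNHG17, SNHG6 and SNHG15, in siUPF1. In siLuc they were SNHG1, SNHG5 and GAS5, and SNHG6 and SNHG8. The highest mean level was 2.27 times the lowest in siUPF1 and 4.69 times in siLuc. SNHG17 made up 13.4% and 14.2% of the counts of the 10 hosts in siUPF1 1 and siUPF1 2, against 8.71% and 8.47% in siLuc a and siLuc b. SNHG16 made up 18.3% and 18.6% in siUPF1, against 24.8% and 25.8% in siLuc.

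Reads per transcript base (counts divided by the transcript length behind the deposited RPKM values) moved with the size of the change. Among all genes tested, those under 0.25 reads per base had a median log2 fold change of 0.05, with 21.3% rising and 9.1% falling (n = 10126). Those of 0.25 to 0.5 had a median of -0.04, with 9.91% rising and 7.62% falling (n = 4359). Those at or over 0.5 had a median of -0.12, with 2.15% rising and 15.8% falling (n = 1072), and no gene tested exceeded 1.12. GAS5, SNHG1, SNHG5, SNHG6 and SNHG8 lay over 0.5 reads per base (0.517 to 0.650), where the upper 5% of all genes began at a log2 fold change of 0.10. GAS5 (0.18), SNHG1 (0.12), SNHG6 (0.13) and SNHG8 (0.35) lay above that value and SNHG5 (0.03) below it. Density here is the mean of both groups, and SNHG8 and SNHG6 were over 0.5 only through their siUPF1 libraries (mean siLuc density 0.450 and 0.463), so the class they are set against depends on their own change. In GAS5, SNHG1 and SNHG5 the mean siLuc density was over 0.5 as well (0.560, 0.585 and 0.580). SNHG12 (0.312), SNHG16 (0.352), SNHG17 (0.425) and SNHG15 (0.445) lay between 0.25 and 0.5, and SNHG11 (0.220) under 0.25.

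**Figure D3:**
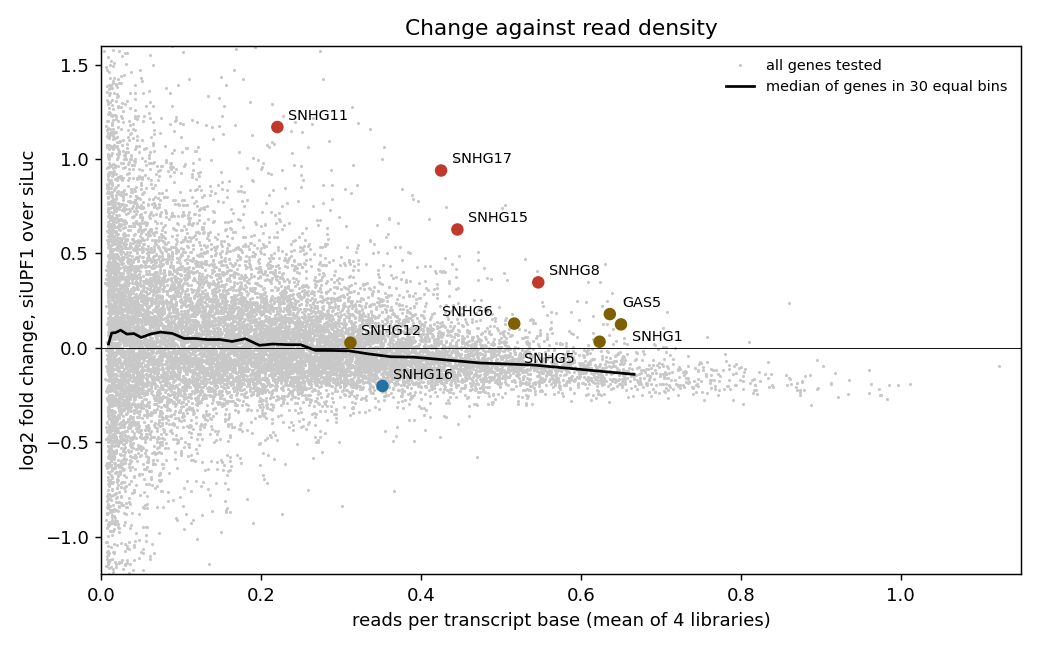
Log2 fold change of siUPF1 over siLuc (vertical axis) against reads per transcript base, mean of 4 libraries (horizontal axis), for all genes tested (grey; 206 lie outside the plotted range of -1.2 to 1.6) and the 10 hosts (red rose, blue fell, brown did not pass); the black line joins the medians of 30 equal bins. The cloud narrows and its median drops below 0 toward high density, and of the 5 hosts over 0.5 reads per base, SNHG8 and SNHG6 are there only through their siUPF1 libraries.

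Over the 10 hosts themselves the relation of change to density varied with the measure. Spearman's rho between reads per base and log2 fold change was -0.15 (n = 10 genes in the same 4 libraries), and Pearson's r was -0.43. With density taken from the siLuc libraries, rho was -0.48. Both densities share counts with the fold change: a host's own rise lifts its mean density, and siLuc counts are the base of the fold change. Over all genes tested rho was -0.18. Of the 4 hosts between 0.25 and 0.5 reads per base, SNHG17 and SNHG15 rose, SNHG12 did not pass and SNHG16 fell. Density in SNHG17 was 0.555 and 0.607 reads per base in siUPF1 1 and siUPF1 2, against 0.261 and 0.277 in siLuc a and siLuc b. In GAS5 it was 0.727 and 0.698 in siUPF1, against 0.533 and 0.587 in siLuc.

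Depth differed between groups, and it moved with the values of dense genes within groups as well. The siUPF1 libraries together were 12.9% deeper than the siLuc libraries. Within siUPF1, library 2 had 1.11 times the counts of library 1, and within siLuc, b had 1.12 times those of a. Genes at or over 0.5 reads per base had a median log2 ratio of -0.12 for siUPF1 2 over siUPF1 1 and -0.09 for siLuc b over siLuc a, while genes under 0.25 had 0.06 and 0.06. All 10 hosts were lower in CPM in the deeper library of each group, with a median log2 ratio of -0.11 in siUPF1 and -0.08 in siLuc. In siUPF1 and siLuc the same held for 1037 and 1035 of 1072 genes at or over 0.5 reads per base. It held for 3147 and 3225 of 4359 genes of 0.25 to 0.5, and for 3647 and 3511 of 10126 genes under 0.25. Between siUPF1 1 and siLuc b, which differ by 1.22% in depth, dense genes had a median log2 ratio of -0.01, and the hosts had ratios of 1.26 (SNHG11), 1.01 (SNHG17), 0.72 (SNHG15), 0.49 (SNHG8), 0.31 (GAS5), 0.25 (SNHG1), 0.21 (SNHG6), 0.15 (SNHG5), 0.06 (SNHG12) and -0.15 (SNHG16). These are single libraries, picked after the data were seen, and carry no test.

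After the dependence of CPM on density had been taken out of every library, 6 of the 10 hosts rose, 1 fell and 3 did not pass (edgeR quasi-likelihood test). GAS5 then stood at 0.29 (SE 0.07, adjusted p = 0.0185) and SNHG1 at 0.24 (SE 0.05, adjusted p = 0.012), both past the threshold. SNHG5 (0.14, adjusted p = 0.181), SNHG6 (0.21, adjusted p = 0.151) and SNHG12 (0.02, adjusted p = 0.873) did not pass, and SNHG16 was still lower (-0.19, adjusted p = 0.0234). The same step moved the calls over all genes to 2217 up and 1962 down, so that 53.1% of calls were rises, against 64.8% (2613 up and 1422 down) without it. The trend taken out, as siUPF1 minus siLuc, was most negative for SNHG1 and GAS5 (-0.12 for each), so both values rose by construction. Density included the siUPF1 counts, and depth differed between the siRNAs. A density-linked effect of the siRNA and one of depth cannot be told apart here, and both would be taken out.

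The snoRNA genes inside the hosts are separate rows of the table, and none of those tested was called. RefSeq spans place 30 tabled snoRNA rows within 9 of the hosts (none within SNHG11), 21 of which passed the filter on low counts. Of these, 0 rose and 0 fell by the edgeR quasi-likelihood test, against 16.8% and 9.14% of all genes tested. By the same test 0 had an unadjusted p under 0.05, and DESeq2 and limma-voom also called 0. Their median log2 fold change was -0.17, with a range of -0.74 to 0.28. Counts were low, from 0 to 43 a library, and the SE of tested rows ran from 0.26 to 0.48. A change the size of that of SNHG8 (0.35) could thus have been missed. The 30 rows together had 394 and 463 counts in siUPF1 1 and siUPF1 2, against 394 and 471 counts in siLuc a and siLuc b, or 39.4 and 41.2 CPM against 44.6 and 47.0 CPM.

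By host, the 10 snoRNA rows within GAS5 summed to 160 and 184 counts in siUPF1 1 and siUPF1 2, against 168 and 179 counts in siLuc a and siLuc b. As CPM these sums were 16.004 and 16.4 in siUPF1 against 19.0 and 17.9 in siLuc, so siUPF1 lay below siLuc while the GAS5 transcript lay above it. The 8 rows within SNHG1 summed to 12.8 and 13.9 CPM in siUPF1, against 13.9 and 14.8 CPM in siLuc. SNORA24, within SNHG8, had 14 and 22 counts in siUPF1 1 and siUPF1 2, against 19 and 29 counts in siLuc a and siLuc b. The 3 rows within SNHG17 summed to 13 and 12 counts in siUPF1, against 8 and 15 counts in siLuc, where the groups overlapped. SNORD1C, the 1 row within SNHG16, had 10 and 6 counts in siUPF1 1 and siUPF1 2, against 6 and 5 counts in siLuc a and siLuc b, a log2 ratio of 0.38 in CPM with overlapping groups, while its host fell. The libraries are not small RNA libraries by their labels, and mature snoRNA was not measured apart from host RNA. The host set with its snoRNA rows was chosen after the table was seen.

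**Figure D4:**
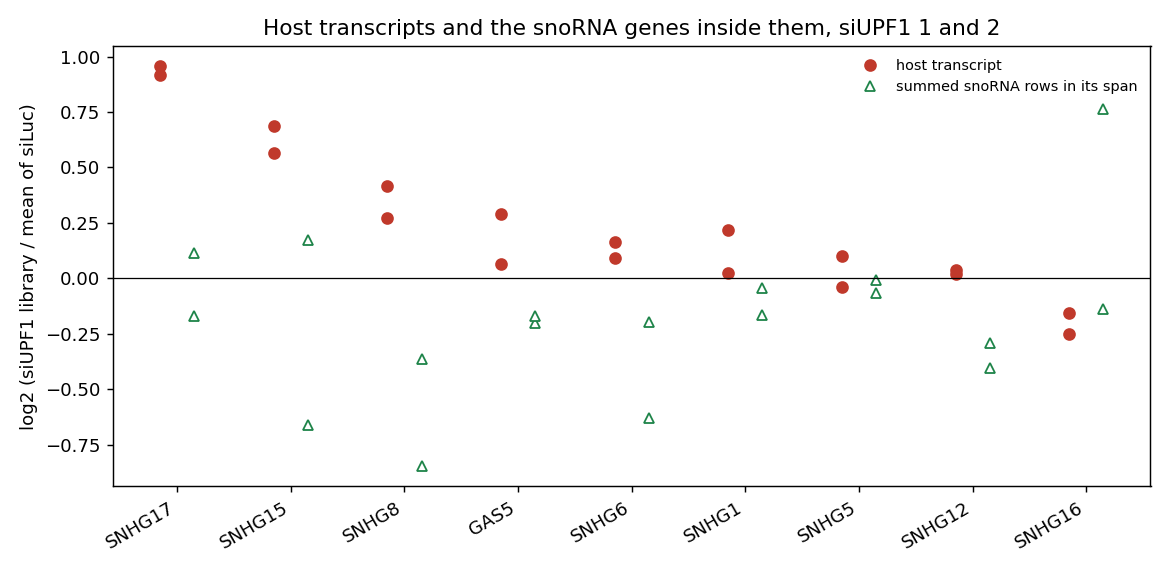
Log2 ratio of each siUPF1 library (1 and 2) to the mean of the siLuc libraries (vertical axis), for each host transcript (red circles) and the summed snoRNA rows within its RefSeq span (green open triangles), in the order of the hosts' fold change. For SNHG17, SNHG15 and SNHG8 the circles lie above 0.2 and every triangle lies below its host's circles.

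Reads of genes that overlap a host cannot be assigned by strand, since the sources used here do not say whether counting used strand. GENCODE places ZBTB37, a zinc finger gene, and the noncoding GAS5-AS1 opposite GAS5, TRNAU1AP, a gene of selenocysteine transfer RNA handling, opposite SNHG12, and MCMDC2, a gene of the MCM domain family, opposite SNHG6. GAS5-AS1 averaged 1.001 CPM in siUPF1 and 0.901 CPM in siLuc and was not tested. ZBTB37 had a log2 fold change of 0.02 (adjusted p = 0.942), TRNAU1AP of 0.18 (adjusted p = 0.174) and MCMDC2 of 0.43 (adjusted p = 0.14, edgeR quasi-likelihood test), and no overlapping tabled gene other than snoRNA genes was annotated for the 4 hosts that rose.

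The presence of a late exon junction could not separate the hosts that rose from those that did not, since all 10 had it in at least 1 matched transcript. The number of such junctions and their distance from the stop were not set against the change. Among 1186 noncoding genes with a matched transcript, 761 (64.2%) had a junction at least 50 nt after the first stop, and 24.8% of them rose, with a median log2 fold change of 0.14. Of the 425 without one, 6.12% rose, with a median of -0.07. A gene counted as having such a junction if any of its matched transcripts did. Unspliced transcripts and those without an AUG counted as having none, so these shares do not compare spliced RNAs alone. Of the 10 hosts 4 rose.

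Other snoRNA hosts were set beside these 10 in 3 lists. Of 14 other noncoding hosts, 3 rose (21.4%), 3 fell (21.4%) and 8 did not pass, with a median log2 fold change of -0.03. Among 1616 noncoding genes tested, 18% rose and 3.59% fell. Of the 14, 3 lay over 0.5 reads per base. RefSeq placed no SNORD or SNORA gene within the spans of 3 others, which are left out of the split by kind below and were not called. EPB41L4A-AS1, the host of SNORA13, had a log2 fold change of 0.57 (SE 0.11, adjusted p = 5.80e-06), SNHG7 of 0.42 (SE 0.09, adjusted p = 3.32e-05) and C6orf48, also named SNHG32 and coding by its accession in the table, of 0.40 (SE 0.09, adjusted p = 6.80e-05, edgeR quasi-likelihood test). The fallers, named because they are few, were SNHG3 (-0.26), SNHG4 (-0.48) and DANCR (-0.22). Without siLuc a or without siLuc b none of the 14 fell by the edgeR test (2 and 5 at an unadjusted p under 0.05), and DESeq2 called 0 (1 at an unadjusted p under 0.05). By kind of snoRNA, 2 of 6 hosts of box H/ACA genes rose and 3 fell, and 1 of 5 hosts of box C/D genes rose and 0 fell, in contrast to the 4 of 4 and 0 of 4 that rose among the members.

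Of 38 protein-coding hosts outside the ribosomal proteins, 2 rose (5.26%), 5 fell (13.2%) and 31 did not pass. Their median log2 fold change was -0.10. For comparison, 16.8% of all genes tested rose and 9.14% fell. At or over 0.5 reads per base these shares were 2.15% and 15.8%, so the share of coding hosts that fell lay between the 2 backgrounds. NCL, which encodes nucleolin, changed by -0.24 (SE 0.07), the chaperone gene HSPA8 by -0.23 (SE 0.07) and the ribosome-associated scaffold gene GNB2L1 by -0.22 (SE 0.07), and their reads per base were 0.934, 0.819 and 0.880. The 2 risers were TAF1D (0.22) and KANSL2 (0.20), named because they are few, and neither was called under RLE size factors or by DESeq2 (0 of 38 rose by DESeq2, also at an unadjusted p under 0.05). Of 24 ribosomal protein hosts, 0 rose (0 at an unadjusted p under 0.05 by the edgeR test and by DESeq2), 8 fell and 16 did not pass, with a median of -0.19. Of the ribosomal protein hosts 33.3% fell, against 15.8% of all genes at or over 0.5 reads per base, whose median was -0.12 and lower quartile -0.17. RPL3 (-0.22, SE 0.07), RPL4 (-0.21, SE 0.07) and RPS3 (-0.21, SE 0.07) had the smallest p. The counts of fallers turned on single libraries: without siUPF1 1, 15 coding and 17 ribosomal protein hosts fell, and without siUPF1 2 0 and 0 (3 and 0 at an unadjusted p under 0.05). Without siLuc a they were 0 and 0 (1 and 2 at an unadjusted p under 0.05), without siLuc b 1 and 0 (9 and 8), and with the density trend removed 1 and 1. Of the 38 and 24 genes, 23 and 19 lay at or over 0.5 reads per base. The lists were chosen with earlier results of these data known and carry no test of their own.

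**Figure D5:**
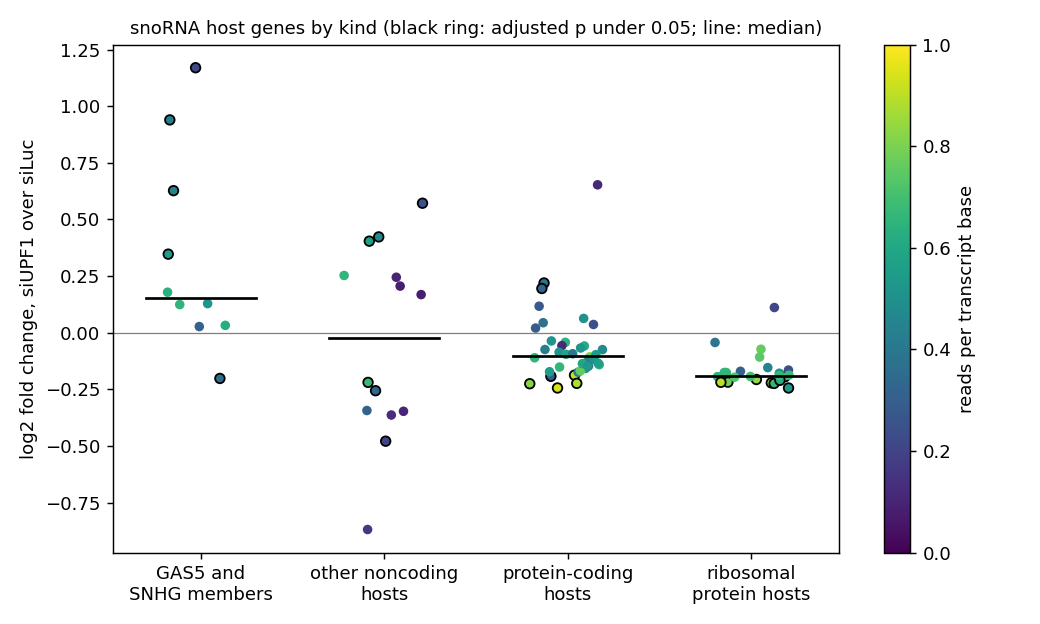
Log2 fold change of siUPF1 over siLuc (vertical axis) for the 10 members and 3 lists of other snoRNA hosts; colour gives reads per transcript base, a black ring an adjusted p under 0.05 and the line the median. The medians are 0.15, -0.03, -0.10 and -0.19 from left to right, and the most densely read genes sit among the protein-coding and ribosomal protein hosts, mostly below 0.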

How the data were processed

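RNA was extracted with Trizol, per the labels' protocols, which name no poly(A) selection. The authors' table holds raw gene counts (whole numbers), deposited beside RPKM values for the same genes. Submitters' processing notes name STAR, DESeq2 and hg19, without versions or roles; strand settings in counting are not given in the sources used. The 2 RPKM columns of siLuc carry 1 name and were not used. The siUPF1 RPKM values deposited by the authors served to derive transcript length (counts over RPKM and library total).

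Counts of the 4 libraries were tested with edgeR 4.0.16 in R 4.3.3 (glmQLFit and glmQLFTest, two-sided, TMM, filterByExpr, which left out 385 genes; Benjamini-Hochberg adjustment over 15557 genes, called at 0.05). SE was the log2 fold change divided by the square root of F. Chi-square per degree of freedom was 2.83 between the siUPF1 libraries and 1.69 between the siLuc libraries, above the 1 of pure counting error, so none was treated as a copy. Data were simulated for siUPF1 against siLuc with 15557 genes, of which 200 were changed, and without a density trend. In them 90% of 2-fold and 72% of 1.41-fold changes were recovered, with 1 false call. Error under the density dependence seen in these libraries is not measured by this simulation. Depth is 8887239 to 11200973 counts a library, and counting error is largest for the snoRNA rows.

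Alternatives were RLE size factors, library size alone, TMM over genes under 0.25 reads per base, DESeq2 1.42.0, limma-voom (limma 3.58.1), no filter, 5 CPM in 2 libraries, the trend on reads per base removed (loess, span 0.3, as offsets) and each library left out. Transcripts came from GENCODE release 29 (GRCh38) through RefSeq accessions, start sequences and snoRNA positions from RefSeq (GRCh38.p14); the table itself holds no coordinates. Named genes are the 10 members, UPF1, the 3 members of each other list with the smallest p, and the 3 genes most like GAS5. Outside this rule, and chosen after their values were seen, the text names few called hosts (SNHG3, SNHG4, DANCR, TAF1D, KANSL2), marker genes, the neighbour RALGAPB and genes overlapping a host; of the marker lists only genes called or holding most reads are named. Members and lists were chosen with earlier results of these data known. Reading frames other than those printed are not reported here.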

Additional observations from a re-analysis of the deposited data

How the results depend on the processing

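SNHG11, SNHG17 and SNHG15 were called higher in all 12 alternatives with a test. Members that rose numbered 4, and 3 to 6 with 1 library left out (3 without siLuc b, 6 without siUPF1 2). Members that fell numbered 1, 0 to 1 with 1 library left out, and 0 with TMM over genes under 0.25 reads per base or with DESeq2 (each 1 at an unadjusted p under 0.05). SNHG5 turned to -0.0186 and SNHG12 to -0.0243 with TMM over genes under 0.25 reads per base; with 1 library left out SNHG5 ran from -0.0373 to 0.104 and SNHG12 from -0.000561 to 0.0443. Neither was called in any of the 12. Over the members, rise against density had a Spearman rho of -0.15, a Pearson r of -0.43 and a rho of -0.48 with siLuc density. Other noncoding hosts that fell numbered 3, 5 with TMM over genes under 0.25 reads per base, 0 with DESeq2 and 0 to 3 with 1 library left out. Coding hosts that rose numbered 2, 1 with a filter of 5 CPM, 0 with RLE, library size, TMM over low-density genes, no filter, DESeq2 or limma-voom (3, 3, 1, 3, 0 and 3 at an unadjusted p under 0.05), and 0 to 2 with 1 library left out. Coding hosts that fell numbered 5, 8 with library size, 3 with TMM over low-density genes, 1 with the trend removed, 2 with DESeq2 and 0 to 15 with 1 library left out. Ribosomal protein hosts that fell numbered 8, 1 with the trend removed, 0 with DESeq2 (5 at an unadjusted p under 0.05) and 0 to 17 with 1 library left out. Over all genes, 2613 rose and 1422 fell, 1274 and 465 with DESeq2, and 1444 to 2764 and 552 to 1522 with 1 library left out, both lowest without siLuc a. Where not stated, the cause was not tested. With 1 library left out, the lone library of that siRNA is assumed to vary like the other pair. No paired analysis was possible because both siLuc columns carry the same name and no replicate number of their own. Depth limits the snoRNA rows most, at 0 to 43 counts.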

Other observations

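Among 10835 genes outside the host lists with a mean of at least 20 CPM, the 3 whose log2 CPM, centred over the 4 libraries, lay closest to that of GAS5 were BLZF1 (Euclidean distance 0.0082), CALD1 (0.0199) and EGLN3 (0.025). BLZF1 had 29.8 and 25.6 CPM in siUPF1 1 and siUPF1 2, against 24.7 and 24.1 CPM in siLuc a and siLuc b. With 4 libraries such likeness is a description of these libraries.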
